A study of Mus musculus with 4 samples.

Results

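The genes that write, read and erase DNA methylation were examined in a map of DNMT3B, itself a methylation writer, in lung metastases formed by 4T1 cells, a mouse mammary tumour line. The 10 genes were given as a list, Dnmt1, Dnmt3a, Dnmt3b, Uhrf1, Uhrf2, Tet1, Tet2, Tet3, Mbd3 and Gadd45b, and are 10 of 21631 protein-coding genes of the mouse autosomes and X. The study sequenced 2 chromatin immunoprecipitation libraries made with an antibody against DNMT3B and 2 input libraries made with none. Each kind carries the lung labels 3 and 5, and all 4 come from 4T1 lung metastases in BALB/c mice. No label gives an age, a time or a treatment, and whether 3 and 5 are separate mice, or how much host lung tissue was in the chromatin, cannot be read from the labels. The data are a list of 1705 distinct narrow regions called with MACS, a caller of sharp enrichment, and a list of 8242 broad islands called with SICER, which joins neighbouring enriched windows. Neither list holds a read count, a score or a value per library, so the depth is unknown, no spread between replicates can be given and no difference between libraries was tested. Without expression values the labelled tissue could not be checked against its markers.

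In mammals DNMT3A and DNMT3B place new methyl groups on cytosines of CpG dinucleotides, and DNMT1 copies them to the new strand when DNA is replicated. UHRF1 recognises DNA methylated on a single strand and brings DNMT1 to it, and UHRF2 is its close relative. TET1, TET2 and TET3 oxidise methylcytosine as a step towards its removal. MBD3 belongs to the methyl-CpG binding domain family and is a core subunit of NuRD, a complex that remodels nucleosomes and removes acetyl groups from histones. GADD45B is a stress-induced protein that has been linked to active demethylation in mouse neurons. Gene bodies that are transcribed are a known place of DNMT3B in mouse cells, and CpG-rich gene starts are usually free of methylation.

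The sequence around the gene start is shown for the 5 members whose start lay under or beside a call, and for Dnmt3b, which no call names. The windows run from 250 bp before to 50 bp after the RefSeq start in GRCm38.p6, 5′ to 3′ along the gene, with CpG dinucleotides, the substrate of the enzyme, in capitals. These positions belong to GRCm38.p6 and not to the positions of the region lists, whose build is not known.
Gadd45b, chr10:80929841-80930140, plus strand: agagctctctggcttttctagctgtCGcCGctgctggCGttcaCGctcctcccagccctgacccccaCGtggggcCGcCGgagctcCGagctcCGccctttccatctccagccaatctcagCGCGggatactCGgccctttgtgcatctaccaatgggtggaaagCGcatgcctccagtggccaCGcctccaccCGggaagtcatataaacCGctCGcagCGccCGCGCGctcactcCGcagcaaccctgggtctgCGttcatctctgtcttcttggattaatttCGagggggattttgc
Mbd3, chr10:80399482-80399781, minus strand: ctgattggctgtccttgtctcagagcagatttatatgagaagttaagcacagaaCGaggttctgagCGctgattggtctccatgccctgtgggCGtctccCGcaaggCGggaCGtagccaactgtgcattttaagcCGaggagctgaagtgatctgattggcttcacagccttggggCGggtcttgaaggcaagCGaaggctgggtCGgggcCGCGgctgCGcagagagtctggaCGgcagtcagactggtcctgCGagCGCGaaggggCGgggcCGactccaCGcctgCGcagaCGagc
Uhrf2, chr19:30030263-30030562, plus strand: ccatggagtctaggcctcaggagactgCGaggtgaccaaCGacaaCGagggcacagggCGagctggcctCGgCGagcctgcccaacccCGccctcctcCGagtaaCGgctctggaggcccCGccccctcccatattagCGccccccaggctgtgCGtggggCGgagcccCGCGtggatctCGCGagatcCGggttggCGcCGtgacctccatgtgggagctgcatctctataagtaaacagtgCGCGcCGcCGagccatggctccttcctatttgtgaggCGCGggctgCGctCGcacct
Uhrf1, chr17:56303087-56303386, plus strand: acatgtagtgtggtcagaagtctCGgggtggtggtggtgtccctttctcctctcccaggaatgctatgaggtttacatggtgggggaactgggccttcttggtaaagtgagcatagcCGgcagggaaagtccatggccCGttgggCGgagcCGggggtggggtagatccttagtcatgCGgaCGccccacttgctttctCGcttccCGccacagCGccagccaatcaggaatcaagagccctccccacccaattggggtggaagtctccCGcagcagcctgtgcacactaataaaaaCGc
Tet3, chr6:83441629-83441928, minus strand: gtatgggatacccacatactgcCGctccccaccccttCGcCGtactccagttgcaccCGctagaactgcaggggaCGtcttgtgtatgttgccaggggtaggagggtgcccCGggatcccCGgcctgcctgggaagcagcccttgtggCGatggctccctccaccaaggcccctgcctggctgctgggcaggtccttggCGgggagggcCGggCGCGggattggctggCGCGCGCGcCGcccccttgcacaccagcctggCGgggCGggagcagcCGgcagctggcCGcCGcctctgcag
Dnmt3b, chr2:153649199-153649498, plus strand: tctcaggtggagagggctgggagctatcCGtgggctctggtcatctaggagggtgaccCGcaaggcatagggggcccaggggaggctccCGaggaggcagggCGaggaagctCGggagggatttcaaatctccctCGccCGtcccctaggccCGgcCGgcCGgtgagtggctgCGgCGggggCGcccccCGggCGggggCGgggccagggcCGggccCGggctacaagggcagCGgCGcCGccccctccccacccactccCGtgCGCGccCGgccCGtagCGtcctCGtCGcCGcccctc

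Narrow regions were assigned to 3 of the 10 members and broad islands to 4, and no member had both by the assignment rule. All placements on genes, here and below, take the calls and the listed gene positions to share a build. That was not tested for the members. A narrow region counted when it overlapped the gene or when its deposited distance put it at most 5 kb upstream, which holds for 5.98% of all protein-coding genes. With overlap alone the count was again 3 of 10, against 5.10% of protein-coding genes. An island counted when it was paired with the gene in the deposited list and its midpoint lay in the gene or up to 5 kb upstream, which holds for 13.4% of protein-coding genes. Both calls hold for 2.01% of them. Uhrf2, Mbd3 and Gadd45b had the narrow regions, and Dnmt1, Dnmt3a, Uhrf1 and Tet3 had the islands. Dnmt3b, Tet1 and Tet2 were named in neither list. The members were chosen with these calls known, so their shares cannot be read against the background.

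This division depended on the pairing of each island with a single gene. At any distance, 6 members had an island paired with them (17.4% of protein-coding genes do), and those of Mbd3 and Gadd45b lay wholly outside the gene. When islands were instead placed by position, whichever gene they were paired with, all 6 members with a listed position had an island over the gene body, as did 84.8% of the 3771 protein-coding genes that the island list gives positions for. An island covered the listed gene start in 4 of the 6 (37.4% of listed genes), and in 1 of the 6 when it had to be the gene's own (30.9%). By position, the narrow regions of Mbd3 and Gadd45b lay inside islands, and those of Uhrf2 did not. Of the 1294 protein-coding genes with an assigned narrow region, 389 had one inside an island, or 1.80% of all protein-coding genes.

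**Figure D1:**
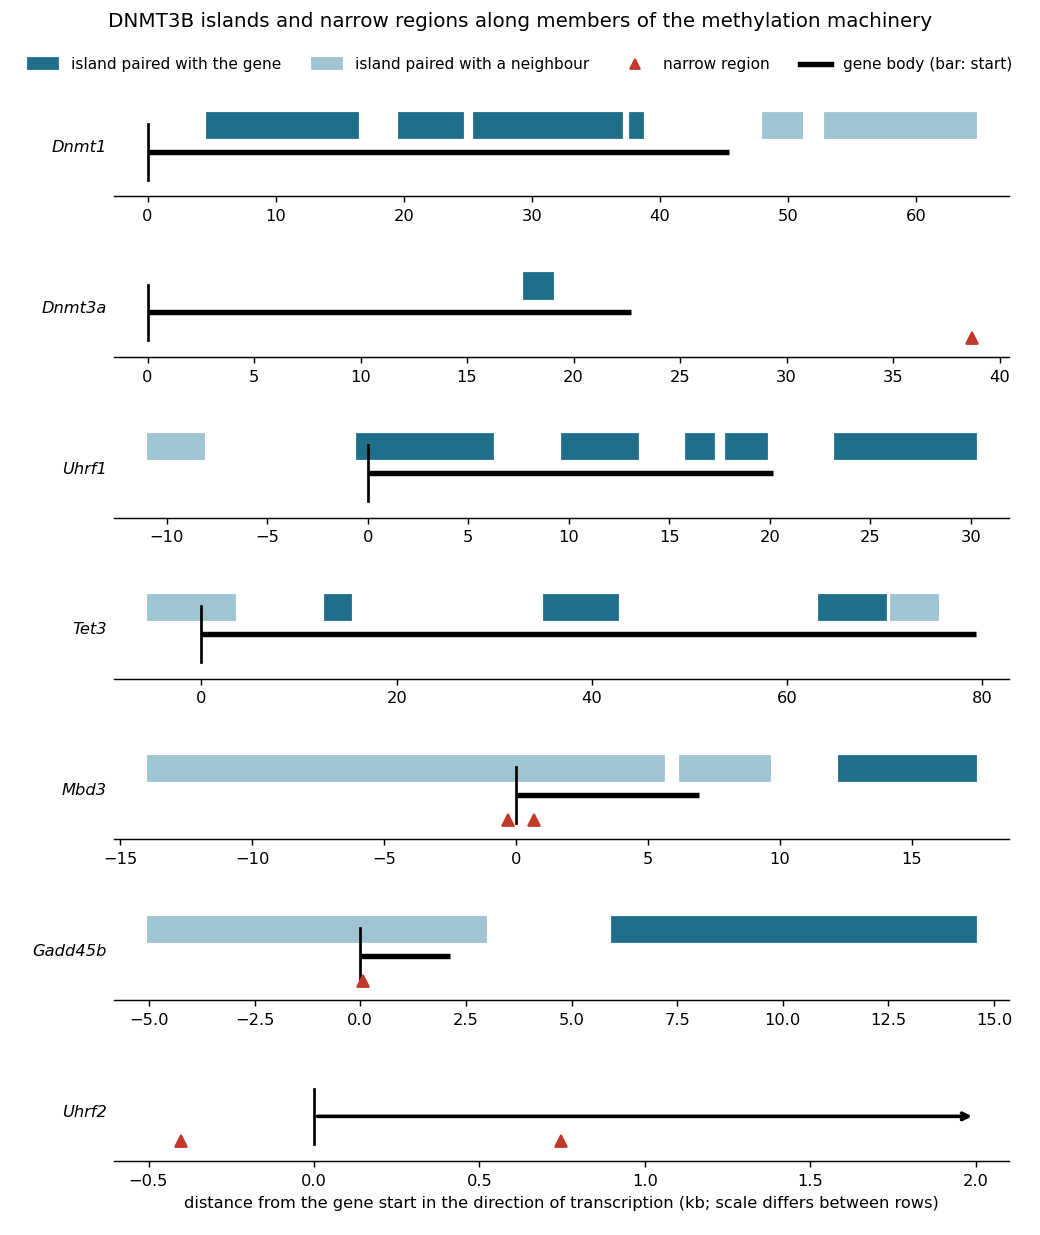
Islands (bars) and narrow regions (triangles, at their midpoints) along 7 members, as distance in kb from the gene start in the direction of transcription; the scale differs between rows, and dark bars are islands paired with the gene and pale bars islands paired with a neighbour. Uhrf2 has no listed gene end, so an arrow marks only its start. Islands over the starts of Tet3, Mbd3 and Gadd45b are pale, and narrow regions flank or touch the starts of Mbd3, Gadd45b and Uhrf2.

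**Figure D2:**
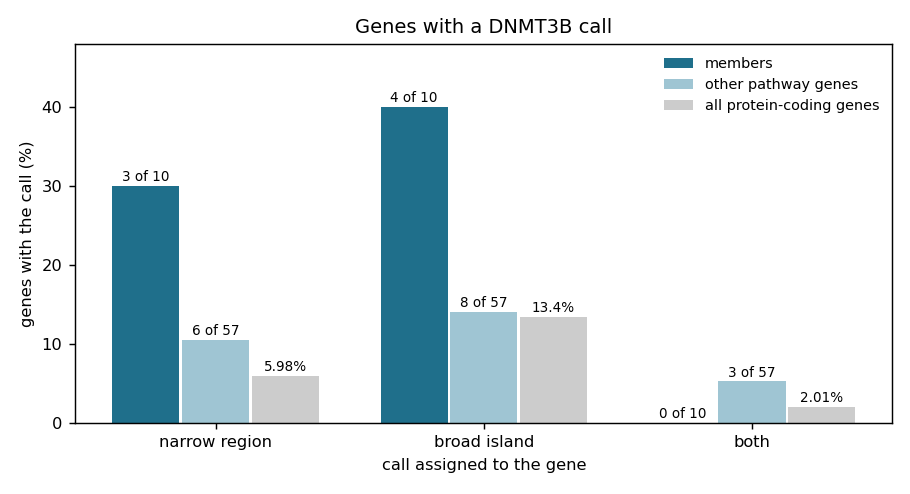
Percent of genes with an assigned narrow region, an assigned broad island or both, for the 10 members, the 57 other protein-coding genes of the pathway list and all 21631 protein-coding genes. Members with a call number 3, 4 and 0 of 10; the members were chosen with the calls known.

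By the deposited positions, Dnmt1, the maintenance methyltransferase, was covered over most of its body but not at its start. Its listed transcript runs over 45419 bp of chromosome 9, from 20711649 to 20757067 on the minus strand. In the direction of transcription, 4 islands paired with it measured 11800, 5000, 11600 and 1000 bp. The first began 4668 bp and the last ended 38667 bp after the gene start. The gaps between them were 3200, 800 and 600 bp, so that a stretch of 34000 bp held 29400 bp of island. Islands took up 64.7% of the gene body, against a median of 23.4% over the listed protein-coding genes (quartiles 4.79% and 59.7%). At least 4 islands were paired with 13.1% of listed genes. None of the 5 kb upstream of the listed start lay in an island, and no narrow region was named for Dnmt1. Beyond its 3′ end, an island of 3000 bp paired with Ppan, the next listed gene, began after 2650 bp. RefSeq gives Dnmt1 3 starts, and by its length the listed transcript begins at the one farthest downstream.

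Uhrf1, the partner that guides DNMT1, had the most islands among the members, and one of them lay across its start. The listed gene runs from 56442759 to 56462909 on the plus strand of chromosome 17. The island at the start, from 56442200 to 56448999, reached from 559 bp upstream to 6240 bp into the gene. Islands of 3800, 1400 and 2000 bp followed, and the last of these ended 19840 bp into the gene of 20151 bp. Islands took up 66.7% of the gene body, with 92.9% of the 5′ part, 56.5% of the middle part and 50.7% of the 3′ part when the body was divided into 3 equal parts. A further island, from 56466000 to 56472999, is paired with Uhrf1 in the list but began 3091 bp beyond its end and lay wholly inside the neighbouring gene Kdm4b. At least 5 islands were paired with 7.77% of listed genes. No narrow region was named for Uhrf1. The nearest ones, 3 regions named for Kdm4b, a histone demethylase gene, lay between 2091 and 2591 bp beyond the Uhrf1 end and outside islands. The surroundings were dense in islands, with 18 within 100 kb of the gene, where the median listed gene had 6 (quartiles 3 and 10) and 3.82% had as many. By the same count Mbd3 had 13, Dnmt1 12, Gadd45b 10, Tet3 8 and Dnmt3a 1.

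Dnmt3a, the other de novo methyltransferase, had little. A single island of 1400 bp, from 3909400 to 3910799 on chromosome 12, lay between 17657 and 19056 bp after the start of a listed transcript of 22701 bp, or 77.8% to 83.9% of the way along it. It covered 6.17% of this transcript. The listed transcript is the short one: RefSeq gives Dnmt3a 3 starts over 84764 bp, and by its length the listed transcript begins at the last of them. No island and no narrow region lay in the 84764 bp ahead of the listed start. A narrow region from 3930250 to 3930620 had Dnmt3a as its nearest gene but lay 15806 bp downstream of it, beyond the distance for assignment. Counting it would bring the members named by a narrow region to 4 of 10 (6.21% of protein-coding genes). This island was the only one within 100 kb of the gene.

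Among the TET genes, Tet3 alone carried calls, all of them broad. Its listed gene spans 79306 bp of chromosome 6, from 83312367 to 83391672 on the minus strand. The 3 islands paired with it measured 2600, 7600 and 6800 bp and began 12673, 35073 and 63273 bp after the start, with gaps of 19800 and 20600 bp between them. At least 3 islands were paired with 24.7% of listed genes. Another island in the body, of 4800 bp, is paired with Bola3 and followed the last of these after a gap of 600 bp. The Tet3 start lay in an island from 83388200 to 83397199 that the list pairs with B230319C09Rik, a noncoding transcript that starts 76 bp away on the opposite strand. That island reached 5527 bp upstream and 3472 bp into Tet3. In all, 31.9% of the body lay in islands, with 23.0% of the 5′ part, 28.7% of the middle part and 43.9% of the 3′ part.

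**Figure D3:**
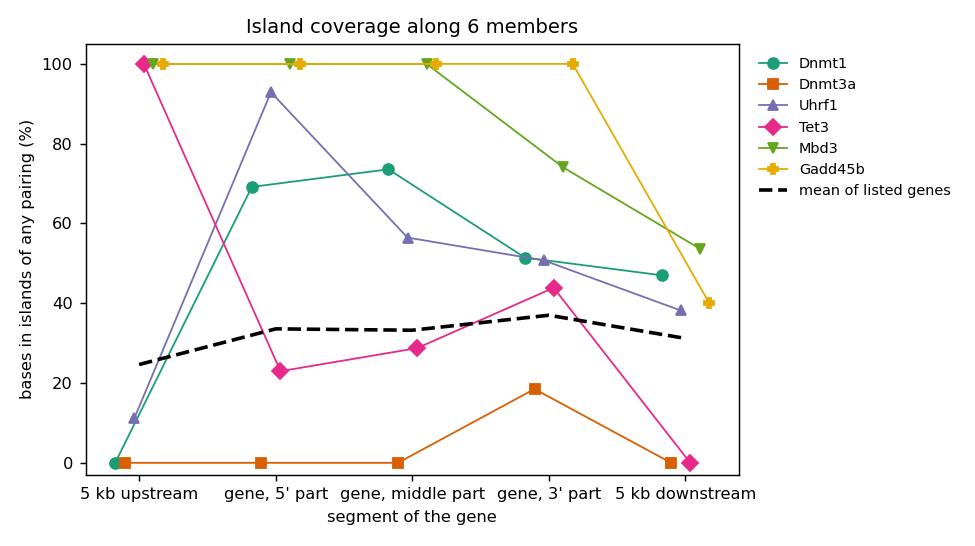
Percent of bases in islands of any pairing in the 5 kb upstream, in 3 equal parts of the gene body and in the 5 kb downstream, for 6 members (lines) and as the mean of 3771 listed protein-coding genes (dashed). Mbd3 and Gadd45b are at 100% upstream and at the 5′ part, Dnmt1 and Dnmt3a are at 0% upstream, and the mean of listed genes is 24.6% upstream and 37.0% in the 3′ part.

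Mbd3, the NuRD subunit, carried both kinds of call at its start. Its listed gene is short, 6940 bp on chromosome 10 from 79855285 to 79862224 on the minus strand. A narrow region from 79862500 to 79862700 lay 223 to 423 bp upstream, and another, from 79861500 to 79861700, lay in an intron 577 to 777 bp after the start that the deposited distance implies. Positions here are rounded to 100 bp. Both fell in an island of 19600 bp from 79856600 to 79876199, a width that 2.39% of islands reach. The list pairs that island with Tcf3, although it reached 5624 bp into Mbd3 and covered 81.1% of its body. With an island of 3400 bp at the 3′ end, paired with Uqcr11, 91.4% of the Mbd3 body lay in islands. The island that the list does pair with Mbd3, from 79844800 to 79849999, began 5286 bp beyond the end of the gene and lay wholly inside Mex3d, a gene for an RNA-binding protein.

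The intronic region of Mbd3 stood on 9 lines of the deposited list and the upstream one on 2. The median region stood on 1 line, and 3.40% of regions stood on at least 9. The lines of a region are identical, and nothing in the file says what a repeated line stands for.

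Gadd45b was the member most fully covered. Its 2115 bp, from 80392835 to 80394949 on the plus strand of chromosome 10, lay entirely in an island from 80387800 to 80395799, as did 6.79% of listed gene bodies. The list pairs this island with Lmnb2, a nuclear lamin gene on the other strand. A narrow region from 80392800 to 80393000, on 3 lines of the list, lay across the gene start, from 35 bp before to 165 bp after it, and 82.1% of it overlapped the gene by the deposited wording. The island paired with Gadd45b itself was another one, of 8600 bp, that began 3851 bp beyond the end of the gene and stopped 3969 bp short of the listed gene Gng7. The median listed gene was 21028 bp long.

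**Figure D4:**
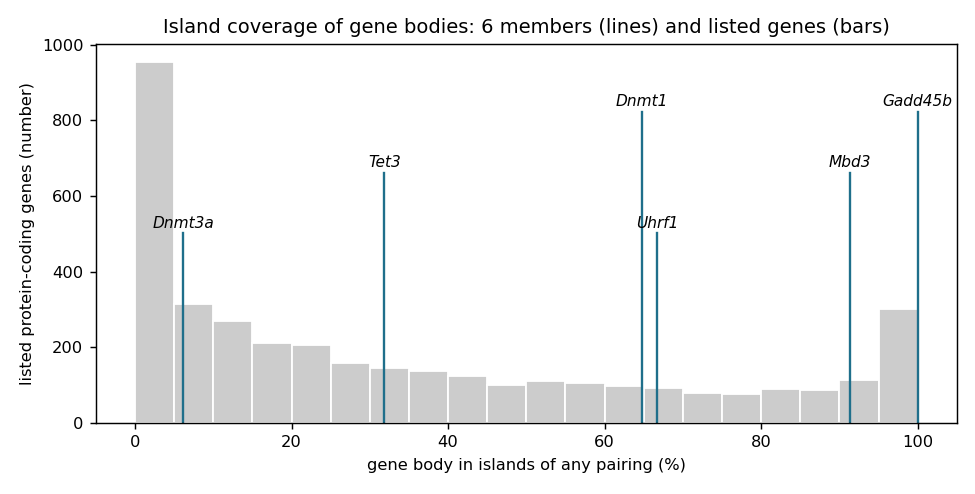
Percent of the gene body in islands of any pairing for 6 members (lines) and the number of listed protein-coding genes in each interval of 5 percentage points (bars). Dnmt3a at 6.17% lies below the median of 23.4%, Tet3 at 31.9% above it, and Dnmt1, Uhrf1, Mbd3 and Gadd45b above the upper quartile of 59.7%.

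Uhrf2, the relative of Uhrf1, showed the opposite arrangement, with narrow regions and no island. A region from 30104500 to 30104700 on chromosome 19 lay 303 to 503 bp upstream of the gene start, and a region from 30105700 to 30105800 lay in an intron, 697 to 797 bp after it. Each stood on 1 line, and positions are rounded to 100 bp. No island lay within 100 kb of this start, although 19.4% of the protein-coding genes of chromosome 19 had an assigned island and 13.9% an assigned narrow region. Of its 3 protein-coding neighbours within 100 kb in RefSeq order, none had an island. Gldc, a glycine cleavage enzyme gene among them, had a narrow region, which lay 144797 bp from the Uhrf2 start.

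Dnmt3b itself, Tet1 and Tet2 were named by no narrow region and no island. Because an island over one of these genes could stand under a neighbour's name, the protein-coding neighbours were read from the RefSeq gene order. Noncoding neighbours were not read, so an island paired with one, as at the Tet3 start, would be missed. The 3 protein-coding genes within 100 kb of Dnmt3b (Commd7, Mapre1 and Efcab8) had no narrow region and no island either. The same held for the 5 around Tet1 (Stox1, Ccar1, Slc25a16, Dna2 and Rufy2) and for Ppa2, the single one near Tet2. Of the protein-coding genes of their chromosomes, 16.2% had an assigned island on chromosome 2, 12.7% on chromosome 10 and 6.71% on chromosome 3. Assigned narrow regions were found at 5.61%, 4.90% and 5.09% of genes on the same chromosomes in this order. The lists hold what passed the authors' thresholds and any selection before deposit, so a gene without a call is not shown to lack DNMT3B.

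CpG counts at gene starts overlapped between members with and without a call. All 10 members matched a RefSeq promoter window, with 15 windows in all. The windows printed above held 24 CpG in Gadd45b, 22 in Mbd3, 28 in Uhrf2, 22 in Tet3 and 12 at the first RefSeq start of Uhrf1, whose other start had 33. Members without any call held 30 CpG in Dnmt3b, 17 in Tet1 and 57 in Tet2. The median over 21045 windows of protein-coding genes was 13 (quartiles 4 and 25), and 0.181% of windows held as many as Tet2. At Dnmt1 and Dnmt3a, whose listed starts lay outside islands, the windows held 33 and 18 CpG. The letters GGGCGG or their complement CCGCCC, the GC box, were found in 13 of the 15 windows, counted on both strands, and in 46.7% of all windows. A match describes these letters only.

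**Figure D5:**
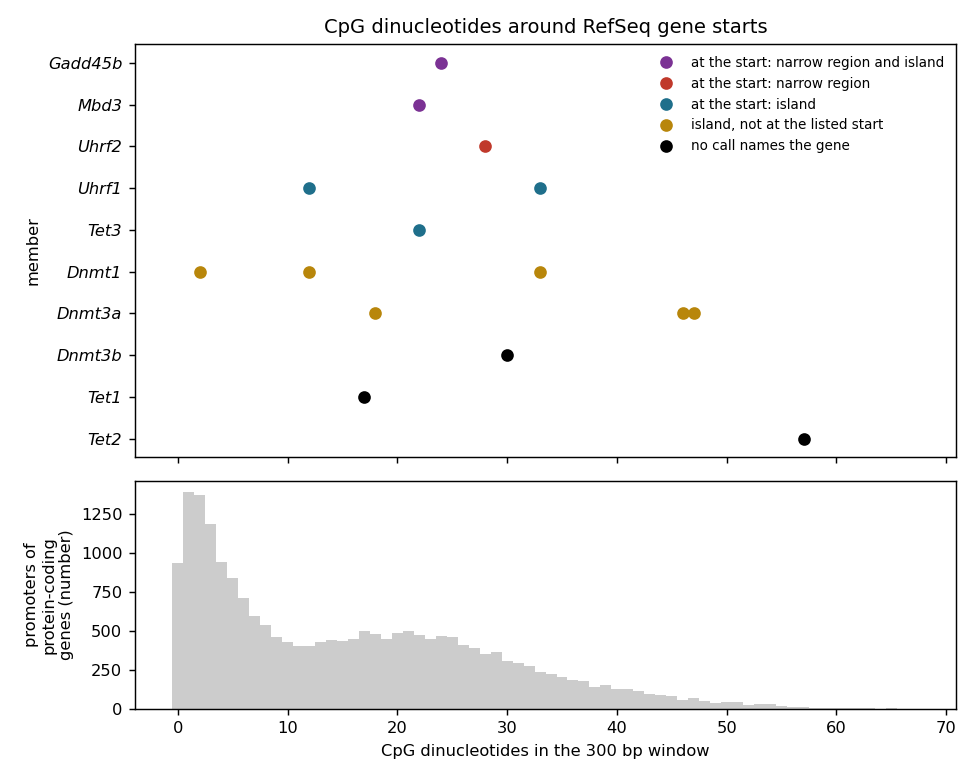
CpG dinucleotides in 300 bp windows around RefSeq gene starts of the 10 members (points, coloured by the call at the start; a gene with several starts has several points) and their number over 21045 windows of protein-coding genes (bars). The starts under or beside a narrow region or an island span 12 to 33 CpG, and those of genes named by no call span 17 to 57. The start of Uhrf2 lies beside its narrow regions and under none.

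Other genes of the pathway were read from a list of 58, of which 57 are protein-coding in RefSeq and Dnmt3c is annotated as a pseudogene. Of the 57, 6 had an assigned narrow region (10.5%, against 5.98% of all protein-coding genes) and 8 an assigned island (14.0%, against 13.4%). Both calls were assigned to 3 of the 57, and 2.01% of all protein-coding genes have both. With the 10 members added, 9 of 67 had a narrow region (13.4%) and 12 of 67 an island (17.9%). None of the 3 other genes of the writer group, Dnmt3l, Hells and Trdmt1, had a call. Neither did any of the 9 other readers, among them Mbd1, Mbd2 and Mbd4, nor any of the 8 genes of demethylation and repair, among them Tdg, Gadd45a and Gadd45g.

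Of the 13 partners of Mbd3 in NuRD, 3 had a narrow region (23.1%, against 5.98% of all protein-coding genes) and 5 had an island (38.5%, against 13.4%). The list was chosen with earlier results known and these shares were not tested, so no concentration in the complex is drawn from them. Chd4, the main ATPase of the complex, had a narrow region at its start, from 125046000 to 125047000 on chromosome 6 with positions rounded to 1000 bp, inside an island of 8400 bp from 1380 bp upstream to 7019 bp into the gene. Mta1, a metastasis-associated subunit, had 5 paired islands, of which those of 2400 and 3000 bp lay wholly upstream and those of 5800, 18200 and 9000 bp in the gene. Islands took up 84.8% of its body, and its listed start lay outside them. Gatad2a had narrow regions 78 to 278 bp after its start and 3 islands deep in the gene, the nearest 21279 bp from the start. Chd3 and Chd5, related ATPase genes, had 48.7% and 6.60% of the body in islands. Mta2 had a narrow region from 9016510 to 9016750 on chromosome 19 and no island. No call was named for Mta3, Hdac1, Hdac2, Gatad2b, Rbbp4, Rbbp7 or Cdk2ap1.

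The remaining calls were spread over the other groups. Of 10 CXXC proteins and cofactors, Kdm2b, whose product binds unmethylated CpG, had a narrow region that the deposited wording places in an intron, and an island of 3200 bp inside the gene. By its position, rounded to 1000 bp, that region lay 641 bp upstream of the listed start and so outside the listed transcript. Which transcript the wording refers to was not checked. Idh2, which makes the cosubstrate of the TET enzymes, had an island of 1800 bp across its start. Usp7, a deubiquitinase that stabilises UHRF1, had 2 islands beyond or at its 3′ end, which did not meet the rule for assignment. Mat2a, the enzyme that makes the methyl donor, had an intronic narrow region from 72389000 to 72389200 on chromosome 6, and the other 3 genes of donor synthesis had none. Of 10 genes listed for the targeting of methylation, Ehmt2, a histone methyltransferase, had 4 paired islands, in the gene and on both sides of it. In all, 58.3% of the Ehmt2 body lay in islands. Setd2, which marks transcribed gene bodies, had a narrow region 100 bp upstream at a step of 1000 bp.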

How the data were processed

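DNMT3B immunoprecipitates (2 libraries) and inputs (2) from 4T1 lung metastases were sequenced, and 2 lists of positions were deposited for the series. Per the submitters' processing notes, the authors aligned reads with Bowtie2 (version given as 2.10) and called regions with MACS (version given as 1.4) and SICER. Those notes name mm10, but of 6 members with a listed position only Dnmt3a had a gene end within 1 kb of GRCm38, so positions are given as deposited, with their build not known. Whether the regions and the gene positions used to annotate them share a build was not tested for the members. The MACS list had 4304 lines and 1705 distinct regions, each counted once; positions carry at most 6 significant digits. The SICER list had 8242 islands in steps of 200 bp, each paired with a single gene, and all 8242 deposited overlaps equal the overlap with that gene extended by 10 kb. The name of the narrow list holds MACS2p05, while the notes give MACS version 1.4, and which version was used is not known. The island list is named top20 and the narrow list p05, which points to a selection before deposit. Its basis, and whether libraries were pooled, are not given in the sources used here. All shares and all genes without a call are those of the lists so named.

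Genes were matched to RefSeq (GRCm38.p6) by transcript accession, symbol or unique synonym, with Python 3.11.15, pandas 2.3.3 and numpy 2.4.6, and coverage was checked on simulated intervals. Listed genes are those with a position in the SICER list. A listed start is the first base of the listed transcript. Offsets of narrow regions use the start their deposited distance implies, where there is one. All 10 members are named, as is every other pathway gene with a call. Counts are set beside those over all protein-coding genes without a test, since no value belongs to a library. The members and the pathway list were chosen with earlier results of these data known. Alternatives were other distances and, added after seeing the data, islands taken by position in place of pairing.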

Additional observations from a re-analysis of the deposited data

How the results depend on the processing

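The count of members with a narrow region was 3 of 10 (5.98% of all protein-coding genes), also with overlap required (5.10%). It was 4 within 20 kb and 4 at any distance (6.21% at any distance). The count of members with an island was 4 by the rule used (13.4%) and with any overlap of the gene body, and 6 with any paired island (17.4%). It was 6 with islands of any pairing over the body (84.8% of listed genes) and 4 with islands of any pairing within 2 kb of the start. It fell to 1, Uhrf1, when a paired island had to lie within 2 kb of the gene start. Pathway genes with an island numbered 8, and 4 within 2 kb of the start. Members with both calls were 0 by the rule used (2.01% of all protein-coding genes) and 2 when the narrow region had to lie inside an island (1.80%). They were 3 with any region named and any island paired, and 2 with islands of any pairing over the body. Members with an island over the listed start were 1 with their own island (30.9% of listed genes) and 4 with islands of any pairing (37.4%). Where no share stands beside a count, none was computed under that rule, and the count has no background to be read against. Other alternatives stayed within 1.5 times of the counts given. No paired analysis was possible because neither list gives a value for any library, so leaving out a library could not be tried either. The depth behind the calls is unknown.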

Other observations

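The deposited annotation was recomputed from the rounded positions for 2 members. For Gadd45b the deposited share of the narrow region in the gene is 82.1%. The rounded positions give the same value with 165 of 201 bp, where the width counts both end bases and the overlap only one of them. Overlap and width were thus counted in different ways, and the match depends on that. For Mbd3 the deposited distance implies a start 53 bp beyond the one in the island list, and a gene of 6993 bp, which is its RefSeq length. The difference is smaller than the step of 100 bp in the positions, and its cause was not tested.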
